A study of Macaca fascicularis with 6 samples.

Results

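Smooth muscle cells shorten when myosin pulls on actin. Calcium entering the cell activates myosin light chain kinase, which phosphorylates the myosin regulatory light chain, while cyclic GMP and cyclic AMP signals relax the cell. In the lung such cells form the muscle layer of the airways, whose contraction narrows the airway in asthma, and the media of the pulmonary vessels. Pericytes of small vessels, myofibroblasts and fibroblasts share part of their genes.

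Contractile smooth muscle cells (SMCs) were selected from the lung cells of 6 male cynomolgus monkeys, aged 3 to 5 years, by measured UMI counts (unique molecular identifiers, 1 per captured RNA molecule). A cell was kept when it had more than 500 and fewer than 5000 genes, at most 25% of its UMIs in 13 mitochondrial genes, at least 2 of ACTG2, CNN1 and DES and at least 1 of MYH11, TAGLN and ACTA2 detected, no UMI of the leukocyte gene PTPRC or the endothelial gene PECAM1, and fewer than 50 UMIs of the mesothelial gene ITLN1. The rule found 64 SMCs among 25388 quality-controlled cells (0.252%). The control group (monkeys 1, 2 and 3) received saline. The asthma group (monkeys 8, 10 and 11) was sensitized with A. suum antigen at 1 mg/mL and challenged intranasally with it at 10 mg/mL. Lungs were taken from both groups in week 11. Each monkey gave 1 droplet library, from lung pieces that were digested with enzymes, freed of red blood cells and depleted of dead cells, so the animal was the replicate (n = 3 per group).

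The SMCs came from all 6 libraries but unequally. Control 1, 2 and 3 held 5, 4 and 36 SMCs, and asthma 8, 10 and 11 held 5, 2 and 12. Thus 36 of the 64 cells came from control 3, and the asthma group gave 19 cells against 45 of the control group. The SMCs carried 183567 UMIs in total, with a median of 2493 UMIs per cell (804 to 6689) and 1223.5 genes per cell, below the medians of all quality-controlled cells, which ran from 3790 to 4853 UMIs by library. Per library the summed SMC UMIs were 14836, 8083 and 104892 in control 1, 2 and 3 and 10701, 6702 and 38353 in asthma 8, 10 and 11. Gene levels are given in CPM, the UMIs of a gene scaled to these sums. The median share of mitochondrial UMIs in SMCs ran from 0.285% in control 1 to 4.97% in asthma 10. At this depth 1 UMI was worth 9.53 CPM in control 3 and 26.1 CPM in asthma 11, but 67.4 to 149 CPM in the other 4 libraries, where a low gene could be missed altogether. Of 34996 distinct barcodes, 137 occurred in more than 1 library, and none of these belonged to an SMC.

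The 3 genes behind the first part of the rule mark differentiated muscle, namely ACTG2, an actin of visceral smooth muscle, CNN1, calponin on the thin filament, and DES, the intermediate filament desmin. Since they selected the cells, their levels are given without a test. ACTG2 was 4516, 1979 and 2545 CPM in control 1, 2 and 3 and 1495, 2984 and 939 CPM in asthma 8, 10 and 11. CNN1 was 2696, 1237 and 2412 CPM in control 1, 2 and 3 and 1682, 2984 and 756 CPM in asthma 8, 10 and 11. Both overlapped between the groups. DES was 2966, 2351 and 2031 CPM in control 1, 2 and 3 and 934, 1343 and 1095 CPM in asthma 8, 10 and 11, so that the asthma libraries lay below the control libraries, with means of 1124 ± 206 CPM and 2449 ± 475 CPM (SD, n = 3). Libraries of the groups were apart, in either direction, for 8.60% of the 186 genes tested between the groups, so that nothing is read from this. All 3 genes were detected in 40 SMCs, ACTG2 with CNN1 in 14, CNN1 with DES in 6 and ACTG2 with DES in 4.

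In the second part of the rule, TAGLN, the actin-binding protein transgelin, was 18806, 16949 and 17122 CPM in control 1, 2 and 3 and 11214, 20591 and 13349.7 CPM in asthma 8, 10 and 11. It had the highest CPM of the rule genes in every library. ACTA2, smooth muscle α-actin, was 8560.3, 4949 and 10954 CPM in control 1, 2 and 3 and 9345, 11937 and 5554 CPM in asthma 8, 10 and 11. MYH11, the smooth muscle myosin heavy chain, was 1483, 1732 and 3699 CPM in control 1, 2 and 3 and 1402, 4029 and 2138 CPM in asthma 8, 10 and 11. TAGLN and ACTA2 had a UMI in all 64 SMCs and MYH11 in 52. For each of these 3 genes the groups overlapped. Of PTPRC and PECAM1 there was no UMI by construction, and ITLN1 gave 6 UMIs in 6 cells.

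**Figure D1:**
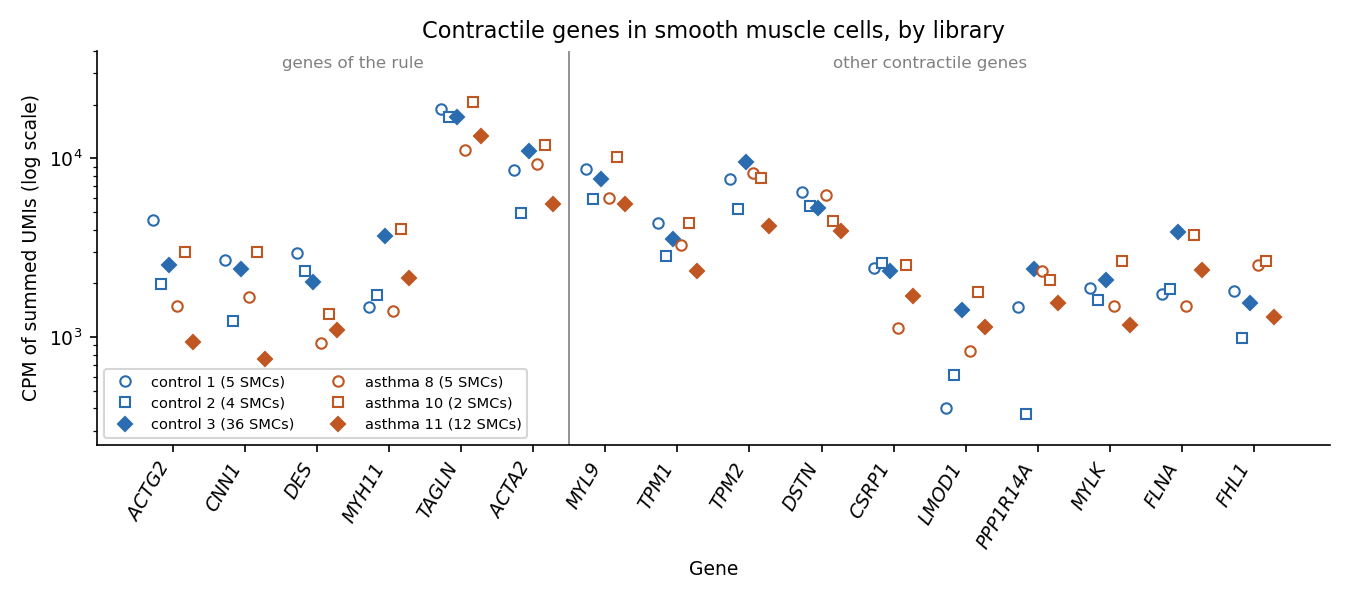
Levels of 16 contractile genes in the SMCs of each library, in CPM of the summed UMIs on a log axis. Each point is 1 library, blue for the control group and orange for the asthma group, filled for the 2 libraries with at least 10 SMCs. TAGLN is the highest rule gene in every library, from 11214 to 20591 CPM, and CNN1 and ACTG2 overlap between the groups.

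Pooled over libraries, cells at the edge of the rule carried less of the muscle genes TAGLN and MYL9. The cells are split here by rule genes, and TAGLN is a rule gene too, so these levels are a description only. In the 40 cells with all 3 of ACTG2, CNN1 and DES, pooled TAGLN was 19773 CPM and MYL9, the myosin regulatory light chain, was 8791 CPM. In the 24 cells with exactly 2 of them, just inside the rule, TAGLN was 11023 CPM and MYL9 was 4904 CPM. In the 55 cells with exactly 1, just outside, they were 2793 and 794 CPM. The level of the fibroblast proteoglycan gene DCN went the other way, from 1515 through 2850.4 to 7814 CPM. The share of cells with a DCN UMI did not follow this order, with 72.5%, 58.3% and 81.8%. Median depth was 1906.5, 3084 and 2766 UMIs per cell in the 3 sets. By library it ran from 1628 (control 3) to 13652 UMIs (asthma 8) in the outermost cells, and the part of depth was not tested. Control 3 gave 68795 of the 109542 UMIs of the cells with all 3 genes and 41504 of the 235597 of the outermost cells. In control 3 alone the outermost cells had 3325 CPM of TAGLN, 1060 CPM of MYL9 and 2939 CPM of DCN. Of the cells that met the muscle part of the rule, 81 in all, 13 had PTPRC, 6 had PECAM1 and 2 had at least 50 ITLN1 UMIs, and those were removed.

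The label was checked against marker lists of other lung cells. Of 14 immune markers PTPRC was at 0 in the SMCs because the rule required it, CD3E, MARCO, MS4A1 and CD79B were at 0 as well, and the whole list summed to 135, 0 and 105 CPM in control 1, 2 and 3 and 93.4, 448 and 130.4 CPM in asthma 8, 10 and 11. Its most abundant gene was HLA-DRA, with 10 UMIs. Against this, all cells other than SMCs, pooled, had 11469.5 CPM. Of 9 endothelial markers PECAM1 was at 0 by the rule, CDH5, VWF and CLDN5 were at 0 as well, and the list summed to 202, 619 and 372 CPM in control 1, 2 and 3 and 187, 298 and 469 CPM in asthma 8, 10 and 11, led by EPAS1 with 28 UMIs. Of the other endothelial markers 4 were detected above their share in T cells. These were ESAM, an adhesion molecule of cell junctions, in 31.2% of SMCs against 1.56%, EPAS1 in 23.4% against 6.16% and KDR, a VEGF receptor, in 9.38% against 0.56%. The last was RAMP2, in 6.25% against 3.09%. EGFL7, in 1 SMC (1.56%), was below its share in T cells (3.12%). Of 8 epithelial markers EPCAM, CDH1, SFTPB, KRT19 and AGER were at 0. The epithelial list summed to 404, 247 and 47.7 CPM in control 1, 2 and 3 and 187, 0 and 469 CPM in asthma 8, 10 and 11, of which the surfactant gene SFTPC gave 28 of 33 UMIs. SFTPC had a UMI in 29.7% of SMCs and in 31.2% of T cells (CD3E and PTPRC detected, n = 6603, median 3841 UMIs), which should lack it. The share differed between libraries, with 4 of 5, 1 of 4 and 2 of 36 SMCs in control 1, 2 and 3 and 2 of 5, 0 of 2 and 10 of 12 in asthma 8, 10 and 11, against 58.9%, 26.2% and 6.64% of T cells in control 1, 2 and 3 and 22.9%, 26.0% and 82.0% in asthma 8, 10 and 11. It was thus read as background and not as expression in SMCs, although few SMCs stand behind most of these shares. Of 6 mesothelial markers only ITLN1 was present, in 9.38% of SMCs against 16.6% of T cells, and the list summed to 0, 0 and 28.6 CPM in control 1, 2 and 3 and 187, 0 and 26.1 CPM in asthma 8, 10 and 11.

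Mesenchymal markers were present in SMCs, and are set beside 3 gated cell sets whose gates are given with the comparisons. DCN had a UMI in 43 SMCs (67.2%) and in 4.94% of T cells. Its level was 4853, 2474 and 1201 CPM in control 1, 2 and 3 and 3738, 5073 and 2216 CPM in asthma 8, 10 and 11, with overlapping groups, against a pooled 25611 CPM in DCN-gated fibroblasts. The list of 10 fibroblast markers summed to 9234, 5567 and 2231 CPM in control 1, 2 and 3 and 7849.7, 7013 and 5293 CPM in asthma 8, 10 and 11, led by DCN with 377 UMIs and with SCARA5 and PI16 at 0, against 55093 CPM in DCN-gated fibroblasts, pooled. The pericyte list of 9 markers summed to 337, 124 and 1029.6 CPM in control 1, 2 and 3 and 1121, 0 and 2920.2 CPM in asthma 8, 10 and 11, led by RGS5 with 69 UMIs and with LAMC3 at 0. In asthma 11 a single cell at the lower edge of the rule held 77 of the 112 UMIs, and without it the list summed to 1059 CPM there, close to asthma 8 and control 3. The list was absent in asthma 10, and summed to 15688 CPM in the COX4I2-gated cells, pooled. SOSTDC1, a secreted antagonist of BMP signalling, had a UMI in 22 SMCs (34.4%) and in 0.242% of T cells. The list of 6 genes it belongs to summed to 1618, 1608 and 915 CPM in control 1, 2 and 3 and 2803, 2238 and 834 CPM in asthma 8, 10 and 11, with WNT5A at 0. In SOSTDC1-gated cells it summed to 3224, 1939 and 2188 CPM in control 1, 2 and 3 and 945, 4073 and 2447 CPM in asthma 8, 10 and 11, so that asthma 8 had more of it in SMCs. The part of any of these cell types in the results was not tested.

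**Figure D2:**
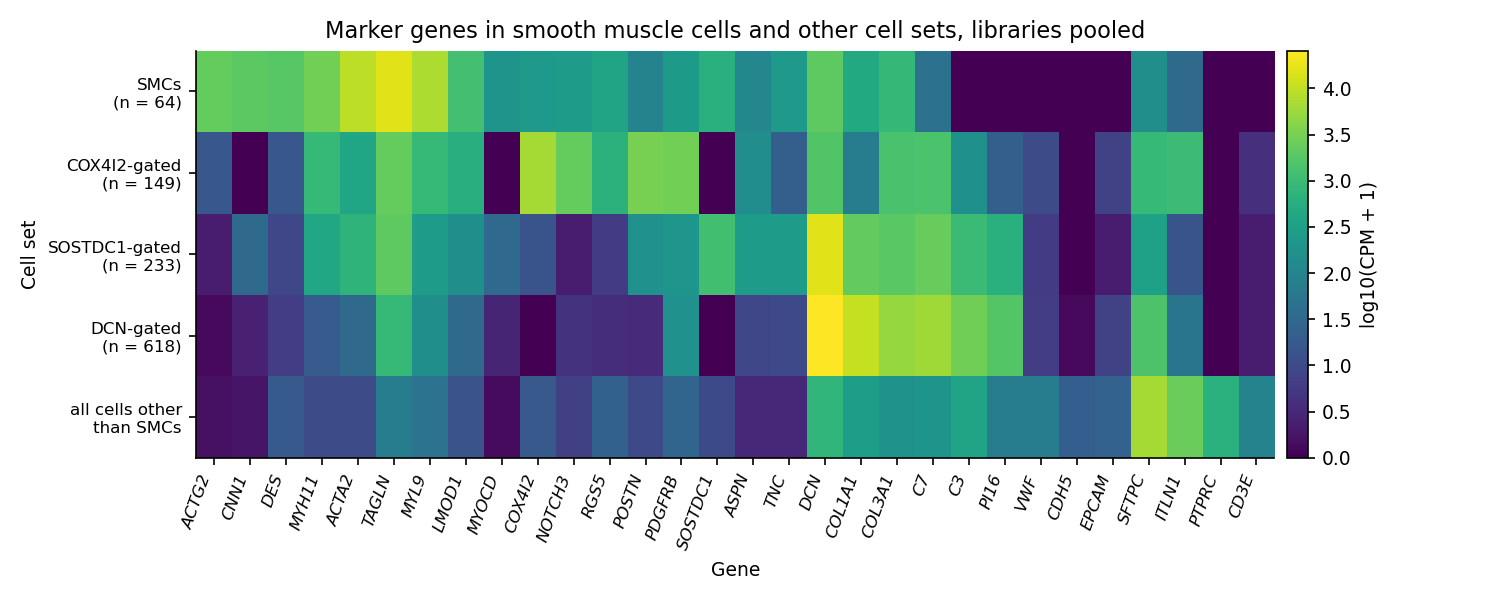
Levels of 30 marker genes in the 64 SMCs, 149 COX4I2-gated cells, 233 SOSTDC1-gated cells, 618 DCN-gated fibroblasts and all cells other than SMCs (which include the 3 gated sets), with libraries pooled, as log10 of CPM plus 1. The rule fixed that SMCs carry ACTG2, CNN1 or DES and lack PTPRC, and beyond it they have no UMI of C3, PI16, VWF, CDH5, EPCAM or CD3E.

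The first comparison asked whether the share of SMCs differed between the groups. SMCs were 0.111% (95% interval 0.0360 to 0.259), 0.114% (0.0310 to 0.291) and 0.885% (0.621 to 1.22) of quality-controlled cells in control 1, 2 and 3. They were 0.116% (0.0377 to 0.271), 0.0424% (0.00513 to 0.153) and 0.281% (0.145 to 0.489) in asthma 8, 10 and 11. Intervals are exact (Clopper-Pearson) and cover counting error only. Control 3 stood apart, its interval lying above those of the other 5 libraries. Means were 0.370% ± 0.446 in the control group and 0.146% ± 0.122 in the asthma group (SD, n = 3), a difference of -0.224 percentage points that did not pass the test (p = 0.7, two-sided exact permutation test over 20 assignments, smallest possible p 0.1). Without control 3 the difference turned to 0.0339 points (exact p = 0.8). In cells from digested tissue, fewer SMCs and fewer SMCs released alive cannot be told apart.

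**Figure D3:**
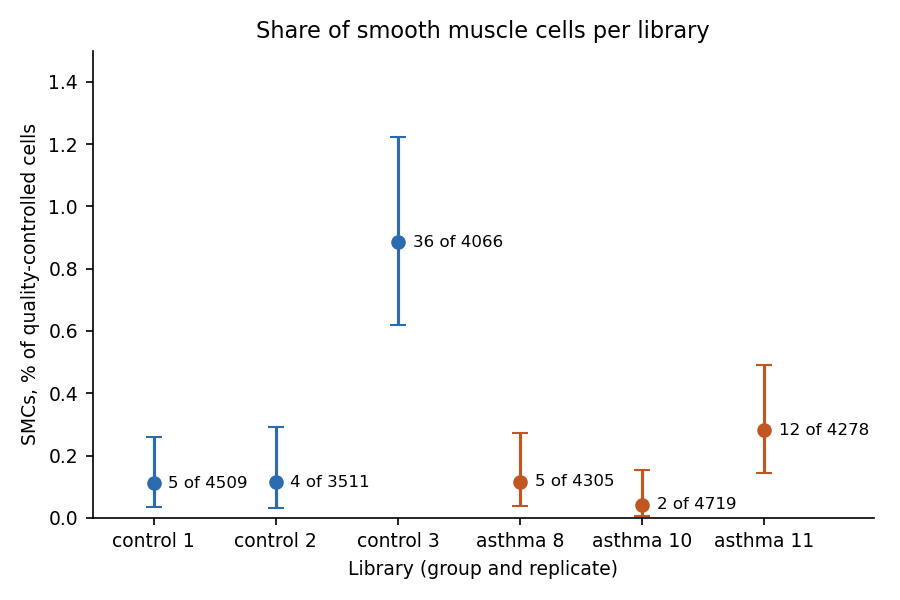
Share of SMCs in each library as percent of its quality-controlled cells, with exact 95% intervals and the counts behind each point, blue for the control group and orange for the asthma group. Control 3, with 36 SMCs, lies above the other 5 libraries, which hold 2 to 12.

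SMCs were then set against 3 other mesenchymal cell sets of the same libraries, each without PTPRC and PECAM1 and outside the SMC rule. COX4I2-gated cells (COX4I2 with HIGD1B, NOTCH3 or LAMC3) carry genes known from pericytes, SOSTDC1-gated cells had SOSTDC1 with ASPN, TNC or PDGFRA, and DCN-gated fibroblasts had at least 2 of DCN, LUM and COL1A2. Cells of the COX4I2 gate were kept out of the SOSTDC1 gate, and DCN-gated fibroblasts were outside both gates, without SOSTDC1, COX4I2 or the mesothelial genes MSLN and UPK3B, and with fewer than 50 UMIs of ITLN1. Genes used by either gate were not tested. The other genes were read in the same cells that the gates selected, so that their calls describe the gated cells and are no independent evidence of identity. With at least 10 cells per set, control 3 and asthma 11 entered, and differentially expressed genes (DEGs) were called by the edgeR quasi-likelihood test with library as block, at a Benjamini-Hochberg adjusted p below 0.05 and a log2 fold change beyond 0.25 in either direction. With 2 libraries each gene had 1 residual degree of freedom, and the estimate of spread was shared across genes. The ± of a log2 fold change is a standard error derived from the F statistic of the test, and no SD between animals. Ratios with counting intervals and bounds of at least a given fold are of levels pooled over libraries, and are no bounds within 1 library. The cell sets fill the libraries unequally. In control 3 and asthma 11 SMCs had 104892 and 38353 UMIs, SOSTDC1-gated cells 193765 and 366164, and DCN-gated fibroblasts 707428 and 1021858. Of 2824 genes, 97 (3.43%) were higher and 108 (3.82%) lower in SMCs than in SOSTDC1-gated cells. Of 5977 genes, 141 (2.36%) were higher and 205 (3.43%) lower than in DCN-gated fibroblasts. DESeq2 called fewer, 27 higher and 30 lower in the former comparison and 66 and 70 in the latter. A fit with at least 2 cells per set, chosen after the numbers of cells were seen, took in all 6 libraries. It called 12.6% higher and 15.5% lower of 730 genes against SOSTDC1-gated cells, and 3.40% higher and 13.6% lower of 4828 genes against DCN-gated fibroblasts.

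Other genes of the contractile apparatus were higher in SMCs. Of 37 listed genes in the files, 30 could be tested against SOSTDC1-gated cells, of which 20 were up-regulated in SMCs, 10 did not pass and none was downregulated, with a median log2 fold change of 2.12 against -0.06 for all 2824 genes. Against DCN-gated fibroblasts 21 of 33 were up-regulated, 1 was downregulated and 11 did not pass (median 2.39, all genes -0.09). In the 6-library fit 16 of 20 and 22 of 32 were up-regulated. The list summed to 43340.5, 34146 and 50185 CPM in control 1, 2 and 3 and 42239, 49985 and 32227 CPM in asthma 8, 10 and 11, and the groups overlapped.

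TPM2, β-tropomyosin of the thin filament, and MYL9 were the most abundant members. TPM2 was 7684, 5196 and 9505 CPM in control 1, 2 and 3 and 8317, 7759 and 4198 CPM in asthma 8, 10 and 11. MYL9 was 8695, 5938 and 7675 CPM in control 1, 2 and 3 and 5981, 10146 and 5528 CPM in asthma 8, 10 and 11, above TPM2 in 4 of 6 libraries, while TPM2 had more UMIs over all SMCs (1455 against 1326). In both genes the groups overlapped, and each had a UMI in all 64 SMCs. In control 3 and asthma 11, SOSTDC1-gated cells had 480.0 and 642 CPM of TPM2 and 160.0 and 303 CPM of MYL9. TPM2 was thus higher in SMCs (log2 fold change 3.44 ± 0.36, adjusted p = 2.4e-05), as was MYL9 (log2 fold change 4.77 ± 0.36, adjusted p = 1.68e-06; edgeR). PPP1R14A, which inhibits myosin phosphatase when phosphorylated, was 2402 and 1564 CPM in SMCs and 5.16 and 73.7 CPM in SOSTDC1-gated cells (log2 fold change 5.46 ± 0.57, adjusted p = 2.18e-05, edgeR). DSTN, the actin-severing protein destrin, and FLNA, the actin cross-linker filamin A, were abundant members as well. DSTN was 5301 and 3911 CPM in SMCs and 836 and 702 CPM in SOSTDC1-gated cells, and FLNA 3871 and 2373 CPM and 403 and 499.8 CPM, both higher in SMCs (adjusted p = 2.4e-05 and 5.26e-05, edgeR).

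Against DCN-gated fibroblasts the largest contractile change was in MYOCD, myocardin, the coactivator of serum response factor that drives smooth muscle genes. It had 35 UMIs in 20 SMCs, 209.7 and 235 CPM in control 3 and asthma 11, and 3 UMIs in the fibroblasts of these libraries (ratio 125, 95% counting interval 38.9 to 638; log2 fold change 6.53 ± 0.78, adjusted p = 1.91e-05, edgeR). MYL9 followed (log2 fold change 5.45 ± 0.65, adjusted p = 1.91e-05), then LMOD1, leiomodin, an actin filament nucleator (log2 fold change 5.29 ± 0.55, adjusted p = 3.96e-06), and SYNPO2, an actin-bundling protein of the Z-disc (log2 fold change 5.18 ± 0.81, adjusted p = 0.000288; edgeR). LMOD1 was 404, 619 and 1421 CPM in control 1, 2 and 3 and 841, 1791 and 1147 CPM in asthma 8, 10 and 11, higher in control 3 than in control 1 and 2. The one downregulated member was HSPB6, a small heat shock protein of muscle, with 133 and 52.1 CPM in SMCs and 438 and 453 CPM in the fibroblasts (log2 fold change -2.43 ± 0.49, adjusted p = 0.00318, edgeR).

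**Figure D4:**
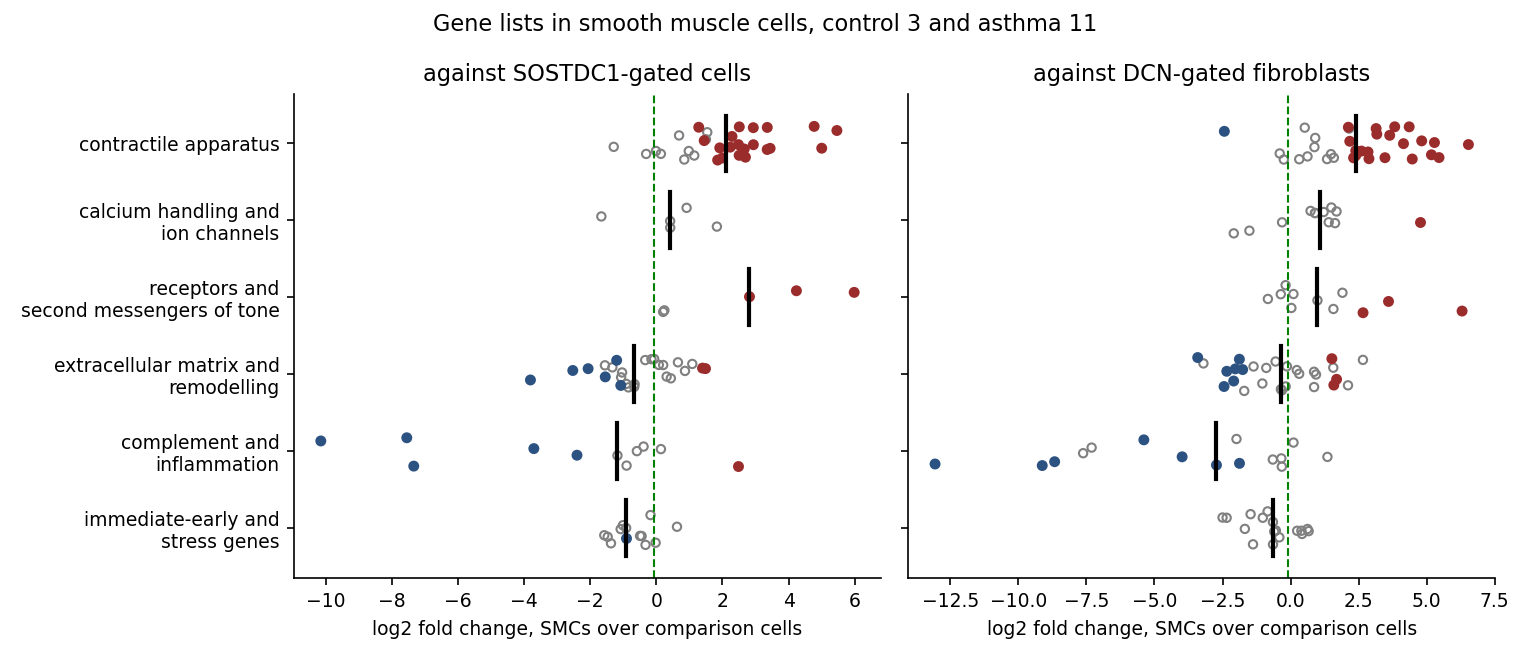
Log2 fold changes of the tested members of 6 gene lists in SMCs of control 3 and asthma 11, against SOSTDC1-gated cells (left) and DCN-gated fibroblasts (right). Each point is 1 gene, filled red where called higher in SMCs, filled blue where called lower and open where not called; black bars are list medians and the dashed green line is the median of all tested genes. The contractile apparatus has 20 and 21 genes called higher, and complement and inflammation has 5 and 7 called lower.

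Calcium handling and ion channel genes were near the detection limit. CACNA1C, the pore of the L-type calcium channel, and RYR3 were at 0 UMIs in the 64 SMCs, where 3 UMIs would correspond to 16.3 CPM pooled. Only 5 of 20 listed genes could be tested against SOSTDC1-gated cells, and none passed. Of 12 tested against DCN-gated fibroblasts 1 was up-regulated, KCNMB1, the β-subunit that tunes the large-conductance calcium-activated potassium channel to calcium. KCNMB1 was 135, 124 and 124 CPM in control 1, 2 and 3 and 187, 0 and 52.1 CPM in asthma 8, 10 and 11, with 13 and 2 UMIs in the 2 libraries that entered against 5 in the fibroblasts (log2 fold change 4.77 ± 0.87, adjusted p = 0.00138, edgeR). The most abundant members were the calcium pumps ATP2B4, with 67.4, 0 and 276 CPM in control 1, 2 and 3 and 187, 149 and 391 CPM in asthma 8, 10 and 11, and ATP2A2, with 269.6, 124 and 181 CPM in control 1, 2 and 3 and 93.4, 149 and 78.2 CPM in asthma 8, 10 and 11. Neither passed against either cell set (adjusted p = 0.195 and 0.127 against SOSTDC1-gated cells, 0.404 and 0.132 against DCN-gated fibroblasts, edgeR). In the 6-library fit 2 of 10 members were higher than in fibroblasts, KCNMB1 and ATP2A2 (log2 fold change 1.54 ± 0.48, adjusted p = 0.0116, edgeR), and 1 was lower, ATP2B1, another calcium pump. In that fit 3.40% of all genes were higher and 13.6% lower, and in the 2-library fit 2.36% were higher. The 1 lower member is thus read as no result about the list. KCNJ8, a pore subunit of ATP-sensitive potassium channels, gave 9 UMIs, all in control 3 and asthma 11, and did not pass against the fibroblasts (adjusted p = 0.64, edgeR). The list summed to 607, 866 and 1325 CPM in control 1, 2 and 3 and 1121, 597 and 1069 CPM in asthma 8, 10 and 11, with overlapping groups.

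Several receptors of bronchial and vascular tone were not detected. HRH1 (histamine) had 0 UMIs in the 64 SMCs, as had ADRA1A (noradrenaline), AGTR1 (angiotensin), BDKRB2 (bradykinin), OXTR (oxytocin) and PTGIR (prostacyclin). A count of 0 of 64 allows a share of cells with a UMI of up to 4.69% (3 counts of 64, counting error only). CHRM2, a muscarinic receptor, had 1 UMI. CHRM3, another muscarinic receptor, was not among the genes in the files, so that its level is not known. The contractile receptors EDNRB and EDNRA (endothelin), TBXA2R (thromboxane) and CYSLTR1 (cysteinyl leukotrienes) had a UMI in 10, 6, 9 and 5 SMCs, 15.6%, 9.38%, 14.1% and 7.81%, against 0.242%, 0.485%, 2.41% and 7.95% of T cells. The share for CYSLTR1 did not exceed that of T cells.

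Downstream of nitric oxide, the soluble guanylate cyclase subunits were higher in SMCs than in at least 1 of the cell sets. GUCY1A1 was 0, 0 and 209.7 CPM in control 1, 2 and 3 and 0, 0 and 339 CPM in asthma 8, 10 and 11, all from control 3 and asthma 11. SOSTDC1-gated cells of these libraries had 20.6 and 8.19 CPM and DCN-gated fibroblasts 46.6 and 20.6 CPM, and GUCY1A1 was higher in SMCs than in either (log2 fold change 4.23 ± 0.63, adjusted p = 0.000588, and log2 fold change 2.66 ± 0.51, adjusted p = 0.00217; edgeR). GUCY1B1 was 0, 0 and 95.3 CPM in control 1, 2 and 3 and 374, 0 and 209 CPM in asthma 8, 10 and 11. It passed against SOSTDC1-gated cells (log2 fold change 2.82 ± 0.74, adjusted p = 0.0301) but not against the fibroblasts (log2 fold change 1.91 ± 0.62, adjusted p = 0.0845; edgeR), and DESeq2 did not call the former. PDE5A, which breaks down cyclic GMP, had a UMI in 20 SMCs and was 202, 0 and 209.7 CPM in control 1, 2 and 3 and 187, 448 and 235 CPM in asthma 8, 10 and 11, without passing (adjusted p = 0.82 and 0.279, edgeR). RGS5, which shortens G-protein signals and is abundant in pericytes, was 0, 0 and 419 CPM in control 1, 2 and 3 and 467, 0 and 521 CPM in asthma 8, 10 and 11, and was higher in SMCs than in SOSTDC1-gated cells (log2 fold change 5.98 ± 0.62, adjusted p = 2.18e-05) and fibroblasts (log2 fold change 6.30 ± 0.54, adjusted p = 6.71e-07; edgeR). Its 69 UMIs lay in 10 cells, 25 of them in 1 cell of control 3. EDNRB was also higher than in fibroblasts (log2 fold change 3.60 ± 0.77, adjusted p = 0.00515, edgeR), on 10 UMIs against 7, a call lost with a minimum of 1 count. In all, 3 of 5 tested members were up-regulated against SOSTDC1-gated cells (median 2.82) and 3 of 11 against fibroblasts (median 0.99), with none downregulated. In the 6-library fit 4 of 11 were higher than in fibroblasts, TBXA2R being the fourth. By comparison 3.43% and 2.36% of all genes were higher in the 2-library fits (medians -0.06 and -0.09), and 3.40% in that 6-library fit.

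Of 26 extracellular matrix genes tested against SOSTDC1-gated cells 2 were up-regulated, 6 downregulated and 18 did not pass (median -0.66). Against DCN-gated fibroblasts 3 of 28 were up-regulated, 7 downregulated and 18 did not pass (median -0.34). Of all genes 3.43% were higher and 3.82% lower in the former comparison and 2.36% and 3.43% in the latter. In the 6-library fits 2 of 19 matrix genes were higher and 9 lower than in SOSTDC1-gated cells, and 4 of 27 higher and 11 lower than in fibroblasts, among 12.6% and 15.5%, and 3.40% and 13.6%, of all genes. COL1A1, a chain of fibrillar type I collagen, was 674, 866 and 276 CPM in control 1, 2 and 3 and 841, 298 and 756 CPM in asthma 8, 10 and 11. In SOSTDC1-gated cells of control 3 and asthma 11 it was 1461 and 2294 CPM and in DCN-gated fibroblasts 2673 and 5885 CPM, so that it was lower in SMCs (log2 fold change -2.06 ± 0.31, adjusted p = 0.000588, and log2 fold change -3.41 ± 0.53, adjusted p = 0.000278; edgeR). COL1A2, the partner chain, was 404, 124 and 114 CPM in control 1, 2 and 3 and 187, 298 and 469 CPM in asthma 8, 10 and 11, lower than in SOSTDC1-gated cells (log2 fold change -2.53 ± 0.35, adjusted p = 0.00032, edgeR) and a gate gene against the fibroblasts. COL4A2, of basement membrane collagen, was 334 and 287 CPM in SMCs and 49.5 and 134 CPM in fibroblasts, and was higher in SMCs (log2 fold change 1.69 ± 0.45, adjusted p = 0.0277, edgeR). That call was lost with DESeq2 and without the library block.

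Of the secreted matricellular genes, CCN2 (connective tissue growth factor) was higher in SMCs than in both cell sets, and CCN1 higher than in fibroblasts. Against SOSTDC1-gated cells, with 831 and 838 CPM in control 3 and asthma 11, CCN1 was not called. CCN2 was 1078, 742 and 1830.5 CPM in control 1, 2 and 3 and 1215, 0 and 2451 CPM in asthma 8, 10 and 11, absent in asthma 10, which held 2 SMCs, and was higher than in SOSTDC1-gated cells (log2 fold change 1.40 ± 0.28, adjusted p = 0.00494) and fibroblasts (log2 fold change 1.59 ± 0.45, adjusted p = 0.0391; edgeR). CCN1 was 944 and 1252 CPM against 247 and 388 CPM in fibroblasts (log2 fold change 1.52 ± 0.39, adjusted p = 0.0226, edgeR). These calls were lost with DESeq2 and without the library block, and in the 6-library fit the log2 fold changes against fibroblasts were 0.15 and 0.28, without a call. IGFBP7, an insulin-like growth factor binding protein, was the most abundant gene of the list, with 876, 2845 and 2345 CPM in control 1, 2 and 3 and 3271, 2238 and 3077 CPM in asthma 8, 10 and 11, and was higher than in SOSTDC1-gated cells (log2 fold change 1.49 ± 0.26, adjusted p = 0.00196) and not called against fibroblasts (log2 fold change 0.86 ± 0.44, adjusted p = 0.362; edgeR). With DESeq2 the call of IGFBP7 was lost. IGFBP5 and SPARCL1, the other abundant members, were 2174 and 2347 CPM and 2393 and 1356 CPM in control 3 and asthma 11 and passed against neither set in the 2-library fits (adjusted p from 0.757 to 0.951, edgeR). In the 6-library fit IGFBP5 was lower than in fibroblasts (log2 fold change -1.23 ± 0.37, adjusted p = 0.00736, edgeR).

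Among members lower in SMCs, TIMP3, an inhibitor of matrix metalloproteinases, was 1125 and 2059.8 CPM against 3504 and 5139.8 CPM in SOSTDC1-gated cells (log2 fold change -1.54 ± 0.26, adjusted p = 0.00139, edgeR). With DESeq2 this call was lost. VEGFA, the endothelial growth factor, had 3 UMIs in all, 1 of them in these 2 libraries against 63 in SOSTDC1-gated cells (a ratio of 0.062 with a 95% counting interval of 0.00155 to 0.359; adjusted p = 0.0312, edgeR), and did not pass against the fibroblasts (adjusted p = 0.134, edgeR). In the 6-library fit VEGFA (log2 fold change -2.35 ± 0.76, adjusted p = 0.016) and TIMP3 (log2 fold change -1.73 ± 0.34, adjusted p = 5.66e-06; edgeR) were lower than in the fibroblasts. Against the fibroblasts FBN1, the microfibril protein fibrillin (log2 fold change -2.44 ± 0.49, adjusted p = 0.00305), COL14A1, a collagen of fibril surfaces (log2 fold change -2.34 ± 0.51, adjusted p = 0.00567), and COL6A2, of type VI collagen (log2 fold change -2.09 ± 0.47, adjusted p = 0.0074; edgeR), were lower. COL14A1 was 172 and 730.1 CPM in the SMCs of control 3 and asthma 11, so that the SMCs of these libraries differed in it, and without the library block its call was lost.

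Of 11 complement and inflammatory genes tested against SOSTDC1-gated cells 5 were downregulated, 1 was up-regulated and 5 did not pass (median -1.18). Of 15 tested against DCN-gated fibroblasts 7 were downregulated, 8 did not pass and none was up-regulated (median -2.72, or -1.88 with the 3 genes at 0 in SMCs placed at their limits). In the 6-library fits 4 of 7 and 9 of 15 were downregulated and none up-regulated, IL33 not being tested in the former. Among all genes, 3.82% and 3.43% were lower in the 2-library fits, and 15.5% and 13.6% in the 6-library fits. C3, the central complement component, had 0 UMIs in the SMCs of every library, against 629.6 and 1185 CPM in SOSTDC1-gated cells of control 3 and asthma 11 and 1833 and 2995 CPM in fibroblasts. In levels pooled over both libraries it was at least 47.4-fold and at least 120.3-fold lower (floor of 3 UMIs, adjusted p = 1.06e-05 and 1.77e-06, edgeR). With DESeq2 the calls of C3 were lost. C7, of the membrane attack complex, had 8 UMIs in 5 SMCs, 2 of them in these libraries, against 2343 and 2551 CPM in SOSTDC1-gated cells, where the level was 178 times that of SMCs (95% counting interval 49.1 to 1467; adjusted p = 3.56e-06, edgeR). CFD, complement factor D, had 9 UMIs and was 38.1 and 78.2 CPM, against 14363 and 2488 CPM and 39676 and 7287 CPM (log2 fold change -7.54 ± 0.57, adjusted p = 1.68e-06, and log2 fold change -9.12 ± 1.19, adjusted p = 4.56e-05; edgeR). PTGDS, prostaglandin D synthase, was lower as well (log2 fold change -3.70 ± 0.40, adjusted p = 2.47e-05, and log2 fold change -5.39 ± 0.68, adjusted p = 3.33e-05; edgeR).

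IL33, the alarmin cytokine that activates type 2 immunity, was the up-regulated member. It had a UMI in 20 SMCs (31.2%) against 0.939% of T cells, and was 0, 371 and 248 CPM in control 1, 2 and 3 and 0, 149 and 339 CPM in asthma 8, 10 and 11. It was higher than in SOSTDC1-gated cells (67.1 and 32.8 CPM; log2 fold change 2.48 ± 0.51, adjusted p = 0.00676, edgeR) and did not pass against fibroblasts (124 and 58.7 CPM; log2 fold change 1.35 ± 0.45, adjusted p = 0.0924, edgeR). With DESeq2 the call against SOSTDC1-gated cells was lost. The groups overlapped. Of the other abundant members NFKBIA, the inhibitor of NF-κB, was 202, 124 and 181 CPM in control 1, 2 and 3 and 280.3, 298 and 209 CPM in asthma 8, 10 and 11 and passed against neither set. CXCL12, a homing chemokine, was 404, 124 and 66.7 CPM in control 1, 2 and 3 and 93.4, 0 and 339 CPM in asthma 8, 10 and 11 and was lower than in fibroblasts only (log2 fold change -1.88 ± 0.50, adjusted p = 0.0274, edgeR), the difference between the 2 comparisons not being tested.

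Immediate-early and stress genes varied between libraries. The 20 listed genes in the files summed to 15772, 2103 and 6149 CPM in control 1, 2 and 3 and 1682, 2089 and 5319 CPM in asthma 8, 10 and 11. Control 1 was highest, and control 2, asthma 8 and asthma 10 were lowest. SOSTDC1-gated cells followed a like order, with 19275, 4508 and 9651 CPM in control 1, 2 and 3 and 3901, 2894 and 8463 CPM in asthma 8, 10 and 11. In DCN-gated fibroblasts the order differed, with 8086, 3860 and 6439 CPM in control 1, 2 and 3 and 5449, 6514 and 6924 CPM in asthma 8, 10 and 11. FOS was 6673, 124 and 1535 CPM in control 1, 2 and 3 and 187, 298 and 1538 CPM in asthma 8, 10 and 11, and 67 of its 324 UMIs lay in 1 cell of control 1. Against SOSTDC1-gated cells 1 of 13 tested members, FOS, was downregulated (log2 fold change -0.90 ± 0.26, adjusted p = 0.0478, edgeR) and 12 did not pass (median -0.90). The call of FOS was lost with DESeq2, with a minimum of 1 count and without the library block. None of 17 passed against fibroblasts (median -0.64). The other abundant members were HSP90AA1, ZFP36 and ATF3, at 944 and 1017 CPM, 439 and 808 CPM and 601 and 313 CPM in control 3 and asthma 11. In the 6-library fit 4 of 10 and 9 of 16 members were downregulated, among a background of 15.5% and 13.6%.

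Across all genes, those with the highest fitted log2 fold changes against SOSTDC1-gated cells, in the same direction in both libraries, had no UMI in those cells, so that only bounds on their increases are known. IGFBP2, an insulin-like growth factor binding protein, was 269.6, 495 and 467 CPM in control 1, 2 and 3 and 748, 0 and 104 CPM in asthma 8, 10 and 11. In levels pooled over control 3 and asthma 11, as for the bounds that follow, it was at least 69.1-fold higher. RERGL, a Ras-like gene of vascular smooth muscle, was 124 and 235 CPM, at least 28.7-fold higher. SLC22A3, an organic cation transporter, AOC3, the amine oxidase of vessel walls, and NPY1R, a neuropeptide Y receptor, had 18, 16 and 15 UMIs in SMCs. They were at least 23.5-, 20.8- and 19.5-fold higher (floor of 3 UMIs over both libraries; adjusted p of these genes from 8.29e-05 to 0.00147, edgeR). Here and elsewhere, a gene at 0 in 1 cell set passed the filter on low counts only through the other set. Its adjusted p is thus a description and no added support. Against DCN-gated fibroblasts RERGL, SLC22A3, IL17B, a cytokine of the IL-17 family, and SNCG, γ-synuclein, had no UMI in the fibroblasts of these libraries and were at least 88.5-, 72.4-, 60.4- and 64.4-fold higher. IL17B had a UMI in 17 of 64 SMCs and in 1 of 6603 T cells. EGFL6, a secreted EGF-repeat protein, had 42 UMIs against 2 (ratio 254, 95% counting interval 65.9 to 2162; adjusted p = 6.71e-07, edgeR), but it was 76.3 and 887 CPM in control 3 and asthma 11, and 16 of its 45 UMIs lay in 1 cell. With DESeq2 the calls of IGFBP2, RERGL, IL17B, SLC22A3 (against fibroblasts) and SNCG were lost. COX4I2-gated cells also carried several of these genes. In asthma 11 (n = 115 of these cells) they had 796 CPM of EGFL6, 145 CPM of IGFBP2 and 105 CPM each of RERGL and SLC22A3. NPY1R was 90.9 CPM, AOC3 29.1 CPM, IL17B 10.9 CPM and SNCG 7.27 CPM in them. The increases above thus hold against SOSTDC1-gated cells or fibroblasts only.

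The genes with the lowest fitted log2 fold changes were at 0 in the SMCs of these 2 libraries, so that only bounds on their decreases are known and their order is not. Against SOSTDC1-gated cells they were C3, PEBP4, PI16, SCARA5, a ferritin receptor, and IGSF10, the latter 4 being at least 22.2-, 30.4-, 24.6- and 14.2-fold lower. Against DCN-gated fibroblasts they were C3, PEBP4, SCARA5, PI16 and CDA, cytidine deaminase, the latter 4 being at least 53-, 47.9-, 63- and 26.8-fold lower (floor of 3 UMIs over both libraries, which were pooled). IGSF10 gave 7 UMIs in the SMCs of control 1, control 2 and asthma 8, and PI16, SCARA5, PEBP4 and CDA gave none in any library. With DESeq2 the calls of these genes, C3 among them, were lost, and without the library block that of PEBP4 against SOSTDC1-gated cells. Of the marker lists, 8 of 9 tested fibroblast genes were lower than in SOSTDC1-gated cells and 6 of 6 lower than in DCN-gated fibroblasts, and of the pericyte genes 1 of 2 and 1 of 4, RGS5 in both, were higher. Of the endothelial genes 1 of 2 and 1 of 5 were higher, ESAM in both (log2 fold change 5.66 ± 0.99, adjusted p = 0.00176, and log2 fold change 5.09 ± 0.82, adjusted p = 0.000423; edgeR), and RAMP2, a receptor activity-modifying protein, was lower than in the fibroblasts. Against these 2 sets, in this order, 3.82% and 3.43% of all genes were lower in SMCs, and 3.43% and 2.36% higher. ESAM and RAMP2 are named after their values were seen, and the part of endothelial cells in the results was not tested.

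The comparison with COX4I2-gated cells rested on few libraries. Control 1, 2 and 3 held 1, 0 and 2 of these cells and asthma 8, 10 and 11 held 6, 25 and 115, so that only asthma 11 had 10 cells of both sets and no test was possible at that minimum. With at least 2 cells per set, a minimum chosen after the numbers of cells were seen, 4 libraries entered, and 69 of 626 genes (11%) were higher and 133 (21.2%) lower in SMCs (edgeR). With a minimum of 1 count in place of the filter on low counts it called 28 higher and 13 lower. Without asthma 11 the fit called 10 higher and 29 lower of 192 genes. Of the 28 called genes named for this comparison, 8 kept their call without asthma 11 and 2 lost it. The others could not be tested in that fit, so that their dependence on asthma 11 is not known. In control 3 the 2 COX4I2-gated cells carried 14390.0 CPM of ACTA2, against 108, 779.7 and 98.1 CPM in asthma 8, 10 and 11. Without control 3, 68 of 527 genes were higher and 146 lower.

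Of 20 tested contractile genes, 11 were higher in SMCs than in COX4I2-gated cells, 1 was lower and 8 were not called (median 1.40, all genes -0.14). The largest increases were in CSRP1, a LIM protein of actin filaments (log2 fold change 3.58 ± 0.69, adjusted p = 0.0002), PDLIM7 (log2 fold change 2.66 ± 0.79, adjusted p = 0.0105), FHL1 (log2 fold change 2.64 ± 0.46, adjusted p = 7.93e-05) and PDLIM3 (log2 fold change 2.28 ± 0.66, adjusted p = 0.00866), further LIM-domain proteins (edgeR). CSRP1 was 2427, 2598 and 2355 CPM in control 1, 2 and 3 and 1121, 2537 and 1695 CPM in asthma 8, 10 and 11. The member that was lower was CALD1, caldesmon, with 607, 1856 and 2383 CPM in control 1, 2 and 3 and 1495, 1194 and 2294 CPM in asthma 8, 10 and 11 in SMCs and 1936, 4702 and 3841 CPM in the COX4I2-gated cells of asthma 8, 10 and 11 (log2 fold change -1.24 ± 0.40, adjusted p = 0.0194, edgeR). The guanylate cyclase genes GUCY1A1 (log2 fold change -1.91 ± 0.57, adjusted p = 0.0111) and GUCY1B1 (log2 fold change -2.20 ± 0.55, adjusted p = 0.00265) were lower in SMCs than in COX4I2-gated cells, as was EDNRA (log2 fold change -2.82 ± 0.71, adjusted p = 0.00292; edgeR). RGS5 did not pass (log2 fold change -1.25 ± 0.54, adjusted p = 0.0676, edgeR). TRPC6, a cation channel, was lower on 3 UMIs against 192 (log2 fold change -4.51 ± 0.89, adjusted p = 0.000266, edgeR). Without asthma 10 the calls of CALD1 (-0.81) and GUCY1A1 (-1.72) were lost, without asthma 8 that of GUCY1A1 (-1.19) and without asthma 11 that of CSRP1 (2.17), the values being log2 fold changes. With a minimum of 1 count in place of the filter on low counts, the calls of CALD1, PDLIM3, PDLIM7, GUCY1A1, GUCY1B1 and EDNRA were lost.

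In the matrix list 3 of 19 tested genes were higher and 6 lower in SMCs than in COX4I2-gated cells (median -0.79), among 11% higher and 21.2% lower of all genes in this fit, so that these counts are read as no result about the list. LTBP1, which binds latent TGF-β, was 337, 371 and 334 CPM in control 1, 2 and 3 and 934, 448 and 521 CPM in asthma 8, 10 and 11 and was higher (log2 fold change 4.63 ± 0.87, adjusted p = 0.000164), as were COL1A1 (log2 fold change 2.55 ± 0.68, adjusted p = 0.00468) and IGFBP5 (log2 fold change 2.54 ± 0.70, adjusted p = 0.00617; edgeR). POSTN, the matricellular protein periostin, was 67.4, 0 and 0 CPM in control 1, 2 and 3 and 1308, 0 and 52.1 CPM in asthma 8, 10 and 11, with 14 of 17 UMIs in asthma 8 and 9 of them in 1 cell. COX4I2-gated cells had 3147 CPM pooled, and POSTN was lower in SMCs (log2 fold change -5.07 ± 0.64, adjusted p = 6.86e-07, edgeR). The basement membrane genes COL4A1 (log2 fold change -2.36 ± 0.66, adjusted p = 0.00703), COL4A2 (log2 fold change -2.05 ± 0.45, adjusted p = 0.000753) and NID1 (log2 fold change -1.93 ± 0.49, adjusted p = 0.00292) were lower (edgeR). In the complement list C7 was lower (log2 fold change -5.10 ± 0.70, adjusted p = 1.95e-06). Of 7 immediate-early genes 1 was lower, KLF6 (log2 fold change -1.79 ± 0.49, adjusted p = 0.00613, edgeR), no larger a share than the 21.2% of all genes. In 1 of the 4 libraries, control 3 with 2 COX4I2-gated cells, the direction was the opposite for IGFBP5 (5214 CPM in these cells against 2174 CPM in SMCs), COL4A1 (0 against 162 CPM) and KLF6 (417 against 448 CPM). Without asthma 10 the calls of COL4A1 (-2.27), IGFBP5 (1.87) and KLF6 (-1.43) were lost, without asthma 8 that of COL4A1 (-1.77) and without asthma 11 that of IGFBP5 (1.58), the values being log2 fold changes. With a minimum of 1 count those of COL1A1, COL4A1, COL4A2, NID1 and KLF6 were lost, and without the library block that of IGFBP5.

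Across all genes, SOSTDC1 and CKB, brain-type creatine kinase, had no UMI in COX4I2-gated cells and were at least 68.1- and 82.6-fold higher in SMCs (floor of 3 UMIs over the 4 libraries, which were pooled). FGF7, a growth factor for epithelium, had 74 UMIs against 2 (ratio 76.4, 95% counting interval 20.4 to 642, pooled over libraries; log2 fold change 5.67 ± 1.04, adjusted p = 0.000141, edgeR with library as block), and CLU, the secreted chaperone clusterin, was 741, 2351 and 3604 CPM in control 1, 2 and 3 and 4486, 7013 and 1095 CPM in asthma 8, 10 and 11 and was higher (log2 fold change 4.25 ± 0.53, adjusted p = 6.86e-07, edgeR). Among the decreases, COL6A6, LPAR3, a lysophosphatidic acid receptor, and FAM162B were at 0 in the SMCs of these 4 libraries and at least 27.1-, 8.56- and 14.7-fold lower. The call of LPAR3 was lost with a minimum of 1 count. CADM1, a cell adhesion molecule, and KCNK3, the potassium channel TASK-1, each had 1 UMI, with levels in COX4I2-gated cells 104 (95% counting interval 18.4 to 4114) and 152 (27.1 to 6028) times as high. These 2 ratios were pooled over libraries, which the cell sets fill unequally, and the fit with library as block gave smaller differences (for CADM1 log2 fold change -6.51 ± 0.83, adjusted p = 7.32e-07, and for KCNK3 log2 fold change -6.09 ± 0.79, adjusted p = 8.56e-07; edgeR).

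Genes known from vascular and from airway muscle were also listed. The 7 vascular genes in the files (RERGL, PLN, NTRK3, NET1, RCAN2, CASQ2, BCAM) each had a UMI in 4.69% to 25% of SMCs and, but for NET1, in at most 2.45% of T cells. NET1 had one in 21.9% of SMCs and 18% of T cells, and is not told from background here. The 6 airway genes (LGR6, HHIP, FAM83D, PRUNE2, SYNM, DGKG) had a UMI in 1.56% to 29.7% of SMCs and, but for FAM83D, in at most 0.697% of T cells. FAM83D, with 1 UMI, was below its share in T cells (3.1%). The vascular list summed to 202, 0 and 601 CPM in control 1, 2 and 3 and 841, 448 and 756 CPM in asthma 8, 10 and 11, and the airway list to 404, 0 and 486 CPM in control 1, 2 and 3 and 561, 1343 and 548 CPM in asthma 8, 10 and 11. Control 2 had neither. Pooled over libraries, the airway list summed to 507 CPM in SMCs and 570 CPM in COX4I2-gated cells, and the vascular list to 583 and 330 CPM. SYNM is also in the contractile list, and PLN and CASQ2 in the calcium list. Of 3 vascular genes tested against SOSTDC1-gated cells, RERGL and BCAM, a laminin receptor, were up-regulated, and of 4 airway genes LGR6, a Wnt pathway receptor, PRUNE2 and SYNM were (medians 4.83 and 2.84). Against DCN-gated fibroblasts RERGL and BCAM of 4 and LGR6 and PRUNE2 of 4 were up-regulated, to which the 6-library fit added SYNM. The 6-library fit against SOSTDC1-gated cells tested 1 airway gene, without a call, and no vascular gene. The share of all genes that were higher was 3.43% against SOSTDC1-gated cells and 2.36% against fibroblasts (medians -0.06 and -0.09). It was 3.40% in the 6-library fit against fibroblasts.

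Gene pairs chosen after their values were seen gave the following counts, which are descriptions of sparse data. RERGL had a UMI in 9 SMCs, 5 of control 3 and 4 of asthma 11, and in no T cell. Of these 9 cells 6 also had COX4I2, 5 had NOTCH3, the receptor of mural cells, 1 had LGR6, and none had HHIP, the hedgehog-interacting protein, or SOSTDC1. These pairs do not stand for the whole lists, since 20 of the 64 SMCs had a UMI of both a vascular and an airway gene, 16 of a vascular gene only, 7 of an airway gene only and 21 of neither, counts that include NET1 and take no account of the depth of each cell. LGR6 had a UMI in 13 SMCs, 7 of which also had SOSTDC1, and in 0.0303% of T cells. HHIP had one in 8, 6 of which had LGR6. None of the 10 cells with COX4I2 had SOSTDC1, and 20 of the 22 cells with SOSTDC1 had DCN, against 3 of the 9 with RERGL.

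COX4I2, a cytochrome c oxidase subunit isoform found in pericytes, was 0, 0 and 66.7 CPM in control 1, 2 and 3 and 374, 0 and 887 CPM in asthma 8, 10 and 11, absent in 3 libraries. Its 45 UMIs lay in 10 SMCs, 25 of them in 1 cell of asthma 11. That cell, with 5294 UMIs, also carried 22 UMIs of NOTCH3, 16 of RGS5, 5 of HIGD1B, 16 of EGFL6, 48 of TAGLN and 20 of ACTA2, but 1 of CNN1, 1 of DES and 0 of ACTG2, and so met the rule at its lower edge. NOTCH3 was 0, 0 and 200.2 CPM in control 1, 2 and 3 and 187, 0 and 704 CPM in asthma 8, 10 and 11, and HIGD1B had 7 UMIs, 6 of them in asthma 11. These genes belong to the comparison gates and were not tested.

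**Figure D5:**
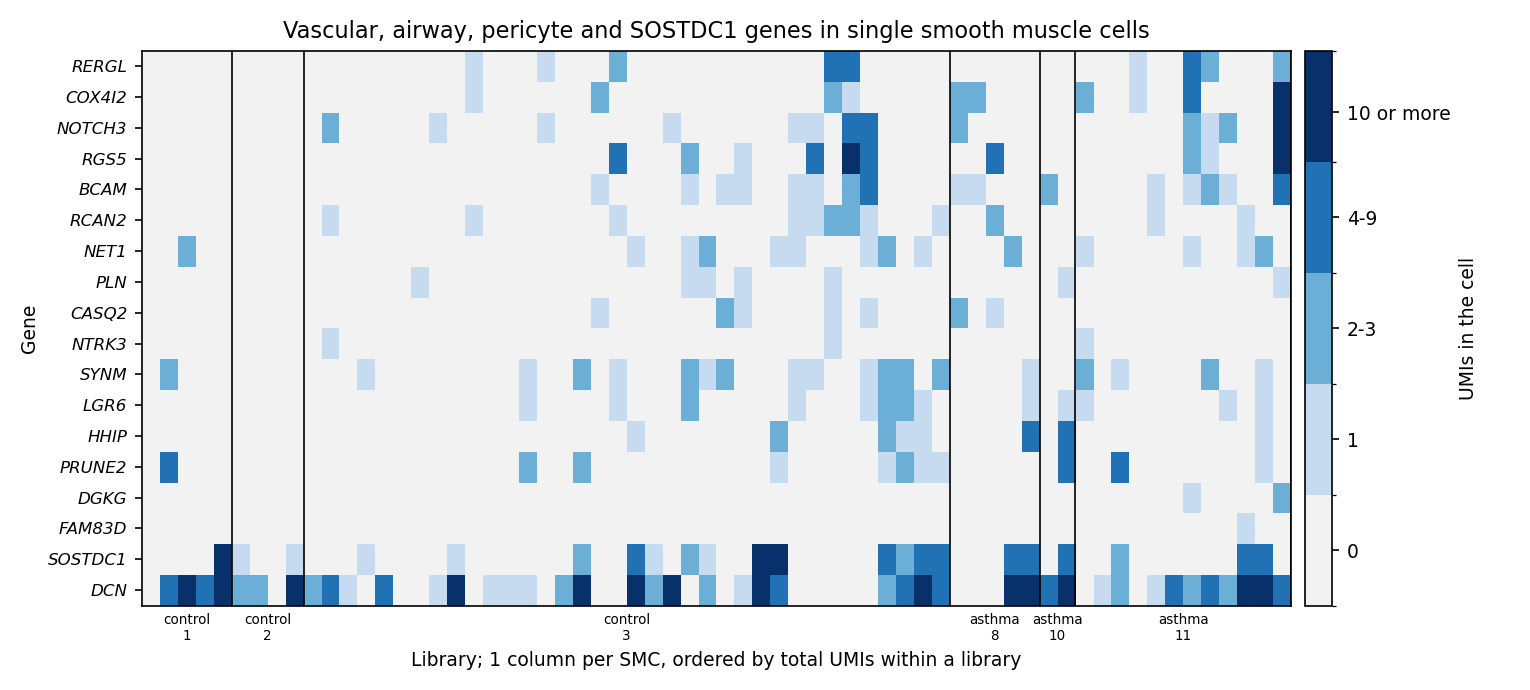
UMIs of 18 genes in each of the 64 SMCs, 1 column per cell, grouped by library and ordered by total UMIs within it; darker blue means more UMIs. RERGL and COX4I2 share 6 cells, no cell has both RERGL and SOSTDC1, and the darkest COX4I2, NOTCH3 and RGS5 entries in asthma 11 lie in 1 cell.

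Between the groups, only control 3 and asthma 11 had at least 10 SMCs, so that with 1 library per group the planned minimum gave levels without a test. With at least 2 SMCs per library, a minimum chosen after the numbers of cells were seen, all 6 libraries entered, and 0 of 186 tested genes were DEGs (0%), with 2 at an unadjusted p under 0.05 (edgeR quasi-likelihood test); DESeq2 also called 0, with 1 at an unadjusted p under 0.05. The smallest adjusted p was 0.978 (edgeR). With at least 5 SMCs per library, 2 libraries per group entered and 0 of 406 genes passed, 13 having an unadjusted p under 0.05. None of 11 tested contractile genes and none of 9 matrix genes passed (medians 0.02 and 0.23 on the log2 scale, all genes -0.04). The libraries of the groups did not overlap for 16 of the 186 genes (8.60%), 6 higher and 10 lower in the asthma group. All 8 of the lower genes with a symbol encode ribosomal proteins, among 46 ribosomal protein genes tested, and the 5 higher genes with a symbol were FTH1 (ferritin heavy chain), CD81, CD99, TPT1 and NME1-NME2. None of these passed the test, and they are named here after their values were seen.

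The level of MYL9 averaged 7436 ± 1394 CPM in the control group and 7218 ± 2546 CPM in the asthma group, and that of TPM2 7462 ± 2163 CPM and 6758 ± 2235 CPM (SD, n = 3). FTH1 was 2831, 2351 and 2746 CPM in control 1, 2 and 3 and 3831, 4029 and 4119.6 CPM in asthma 8, 10 and 11, without overlap (log2 fold change 0.71 ± 0.26, adjusted p = 0.978, edgeR). CLU overlapped between the groups (log2 fold change 0.87 ± 0.68, adjusted p = 0.978, edgeR). COL1A1 averaged 606 ± 301 CPM and 632 ± 292 CPM and DCN 2843 ± 1854 CPM and 3676 ± 1429 CPM (SD, n = 3). For COL1A1 and DCN too the libraries of the groups overlapped. C3 was at 0 in both groups.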

How the data were processed

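The 6 lung single-cell libraries, 3 per group, were analysed. The deposited values were raw UMI counts per gene and cell, which the authors made with Cell Ranger on the macFas6 genome (version 2.1.1 in the submitters' processing notes, 4.0.0 in the matrix headers). Cell filters and the gates are given with the results. No gene annotation file of that build was used, symbols were taken as the files give them, and no sequence is shown. Listed genes without a row in the files were not analysed here. The members and gene lists were chosen with earlier results of these data known. UMIs were summed per library and cell set and tested with edgeR 4.0.16 (TMM, filterByExpr, quasi-likelihood test, Benjamini-Hochberg adjustment; R 4.3.3), with library as block between cell sets. DESeq2 1.42.0, a minimum of 1 count, other cell minima and fits without each library were alternatives. Fits with at least 2 cells per set were added after the numbers of cells were seen, since the planned minimum of 10 left too few libraries for the asthma and COX4I2 comparisons. Shares were compared by an exact permutation test (scipy 1.17.1), with Clopper-Pearson intervals. Scrublet (scanpy 1.11.5) marked 866 cells as doublets at a set rate, and its own threshold only 10; no SMC was among those marked, and none was removed. The fits were tested on simulated data. Every simulated gene had the same dispersion, and shares are of the changed genes that passed the filter on low counts. A log2 change of 1 was recovered in 0% of these in both 2-library fits. In the 6-library asthma comparison it was 25%, or 9 of 36, although 200 genes had been changed. For a log2 change of 2 recovery was 73.4% (SOSTDC1), 30% (DCN) and 93.8% (asthma, 61 of 65). In the 6-library fits changes of 1 and 2 were recovered in 43.6% and 100% (SOSTDC1) and 6.5% and 80.5% (DCN). In the COX4I2 fit this was 14.5% and 88.6%. False calls at a change of 2 were 7 (SOSTDC1) and 0 (DCN) with 2 libraries. With 6 libraries they were 10 (SOSTDC1), 22 (DCN, beside 161 recovered) and 5 (asthma), and 2 for COX4I2. Genes were named by a rule covering the rule genes, the genes the study names for smooth muscle, the most abundant and most changed genes of each list, and the largest changes in the same direction in every library. Results of a few listed genes are not reported here, although the counts over lists include them.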

Additional observations from a re-analysis of the deposited data

How the results depend on the processing

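The share of SMCs kept its sign, without passing the test, under 10%-mitochondrial, 200-gene, 3-gene, PTPRC-negative, thinned and doublet-free settings (-1.60 to -0.138 percentage points). Leaving out 1 library gave -0.353 to 0.0339 points, the latter without control 3. No paired analysis was possible between asthma and control because the groups are made of different monkeys. Between cell sets the library was the block. With 2 libraries, DESeq2 called 57 genes against SOSTDC1-gated cells (205 with edgeR) and 136 against DCN-gated fibroblasts (346). Without the replicate block 139 and 196 genes were called, and with at least 2 cells 820 against fibroblasts. With at least 2 cells, the fit without the replicate block called 105 (SOSTDC1) and 520 (DCN), but its filter also left fewer genes to test (370 instead of 730, and 2538 instead of 4828), and a minimum of 1 count called 352 (SOSTDC1) and 41 (COX4I2). Leaving out 1 library there gave 93 to 246 (93 without control 3, 124 without asthma 11), 503 to 694 (503 without control 3) and, for COX4I2, 39 to 214 (39 without asthma 11, 111 without asthma 10). The asthma comparison called 0 genes in each alternative run. With a minimum of 1 count, the share of calls higher in SMCs was 35.3% against 47.3% (SOSTDC1) and 29.0% against 40.8% (DCN). With at least 2 cells and that minimum it was 26.4% against 44.9% (SOSTDC1, 93 higher and 259 lower against 92 and 113). For COX4I2 it was 68.3% against 34.2% (28 higher and 13 lower against 69 and 133). Without the replicate block, and with fewer genes tested, it was 31.3% against 20% for DCN with at least 2 cells (163 higher and 357 lower against 164 and 656). Of 372 values of named genes under alternatives, 313 kept their call, 59 lost it and 0 changed sign. Genes that an alternative could not test are not among these values. The causes were not tested. With at least 10 cells, leaving out a library, and for asthma against control every other setting but at least 5 cells, was not run, since too few libraries were left. Depth limited low genes, since 1 UMI was worth up to 149 CPM.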
